A study of Mus musculus with 20 samples.

Results

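A set of 10 genes of pancreatic digestion was followed through an RNA immunoprecipitation study of mouse tissues: the proteases Cpa1, Cpb1, Ctrb1, Ctrl and Cela2a, the lipid-digesting proteins Cel, Pnlip, Pnliprp1 and Pla2g1b, and the lipase cofactor Clps. They were chosen by name, with every probe set that the array annotation assigned to one of them, and earlier results of these data were known when they were chosen. Of the 10 genes, 9 had a probe set, 13 probe sets in all of the 45101 on the array, and 18194 genes had a probe set of their own in the whole series. No probe set of Pnlip, the main pancreatic triglyceride lipase, is named in the annotation used here. Of the 13, 11 were bright enough to be tested, the condition being a value at or above the median of the same array on at least 2 of the 20 arrays. The 2 that did not are Pla2g1b probe sets that lay between 2.34 and 3.14 on all 20 arrays.

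The study mixed total RNA with purified recombinant iron regulatory protein 2 (IRP2), a cytoplasmic protein that binds stem-loops called iron-responsive elements in mRNAs of iron metabolism, and recovered the bound RNA through the His tag of the protein. Each IRP2 reaction had a control reaction with RNA and antibody but no IRP2, so the control arrays show the RNA that was carried along without the protein. The groups were IRP2 and control reactions of duodenum, spleen, liver, bone marrow and brain, 10 groups of 2 arrays each. All RNA came from C57BL6/J mice of both sexes, pooled within a tissue from 4 mice for duodenum, spleen and liver and 6 mice for bone marrow and brain. The mice of duodenum, spleen and liver ate an iron-poor diet (below 10 mg per kg) for 21 days from weaning, while those of bone marrow and brain had an iron-normal diet and an age of 8 to 10 weeks, so diet and age cannot be told apart from tissue between these sets. The protein was made in E. coli and was the same for all tissues. The labels do not say whether the 2 replicates of a tissue used separate pools of mice, and the p-values therefore reflect the spread between arrays that may differ only technically. No pancreas RNA was among the samples.

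Acinar cells of the exocrine pancreas make digestive enzymes in very large amounts, mostly as inactive zymogens that are activated in the duodenum. Proteases cut dietary protein at different residues, lipases and phospholipase cut dietary fat, and colipase holds pancreatic lipase on fat droplets in the presence of bile salts. Transcription of these genes in acinar cells depends on the PTF1 complex, whose DNA-binding subunits Ptf1a and Rbpjl read a site that includes a short TTTCCC box. The pancreas lies in the loop of the duodenum, and its tail reaches the spleen.

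Because the members moved together across the arrays, as described below, their promoters were searched for the letters TTTCCC on both strands (GGGAAA on the opposite one) in RefSeq sequence of build GRCm38.p6, from 250 bases before to 50 after each gene's start. A promoter was given for 9 of the 10 genes, Clps having none in the table, and 4 of the 9 held the letters. Of all 32851 promoters of the same length, 25.2% held them. The 4 stretches of 60 bases around the match are shown for Cel (chr2:28563457-28563516, minus strand), Cela2a (chr4:141826057-141826116, minus strand), Cpa1 (chr6:30639172-30639231, plus strand) and Ctrb1 (chr8:111691173-111691232, minus strand), each on the strand of its gene with the match in capitals.
Cel: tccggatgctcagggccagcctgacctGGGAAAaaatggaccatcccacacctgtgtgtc
Cela2a: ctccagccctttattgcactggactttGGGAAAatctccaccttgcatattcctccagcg
Cpa1: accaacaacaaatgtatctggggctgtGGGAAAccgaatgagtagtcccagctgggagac
Ctrb1: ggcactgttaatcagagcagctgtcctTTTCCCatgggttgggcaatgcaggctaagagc
The first base of the match lay at -86 in Cel, -84 in Cela2a, -19 in Cpa1 and -195 in Ctrb1, counted from the annotated start. The 4 genes are found among both the proteases and the lipases, and the match is a description of letters, not of a bound site.

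Values are log2 probe set summaries as deposited, between 1.77 and 15 on the arrays. Each tissue was checked against lists of its defining markers. All 4 arrays of the labelled tissue lay above the other 16 for 11 of 13 duodenal epithelium genes, 8 of 9 spleen B and T cell genes, 8 of 9 liver genes, 10 of 10 bone marrow myeloid genes and 4 of 9 brain genes. The medians of the spleen, bone marrow and brain replicate 2 arrays (5.39 to 5.55) were all below those of the remaining arrays (5.65 to 5.71), so levels set across tissues have each array's median subtracted. The control array of bone marrow replicate 1 stood apart, with a mean Spearman correlation of 0.908 with the spleen arrays, where the remaining 3 of bone marrow had 0.824 to 0.825. The mean of the 9 member genes minus the array median was -0.04 on that array, 0.34 to 0.41 on the other 3 of bone marrow and 2.46 to 3.30 on the spleen arrays. The number of arrays limits the precision throughout.

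In the control reactions, digestive enzyme mRNAs were highest in duodenum, intermediate in spleen, and low in liver, bone marrow and brain. For 8 of the 9 genes, and for 10 of the 11 probe sets that passed the filter, both duodenum controls lay above both spleen controls and both of these above all 6 controls of the other tissues. Across all tested probe sets, 0.922% had this order. Pla2g1b was the exception among the genes: duodenum was highest on its brightest probe set, and spleen was not above the other tissues. Spleen had the lowest control mean, 0.31 above the array medians beside 0.33 in brain, and the controls of these tissues overlapped. Both duodenum controls alone lay above the other 6 for all 9 genes, against 8.51% of all tested probe sets, and both spleen controls for 8 of 9 genes, against 23.2%. The genes were proposed for this pattern, so these levels are a description and carry no test. In bulk RNA, fewer cells of a type and less RNA per cell cannot be told apart.

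**Figure D1:**
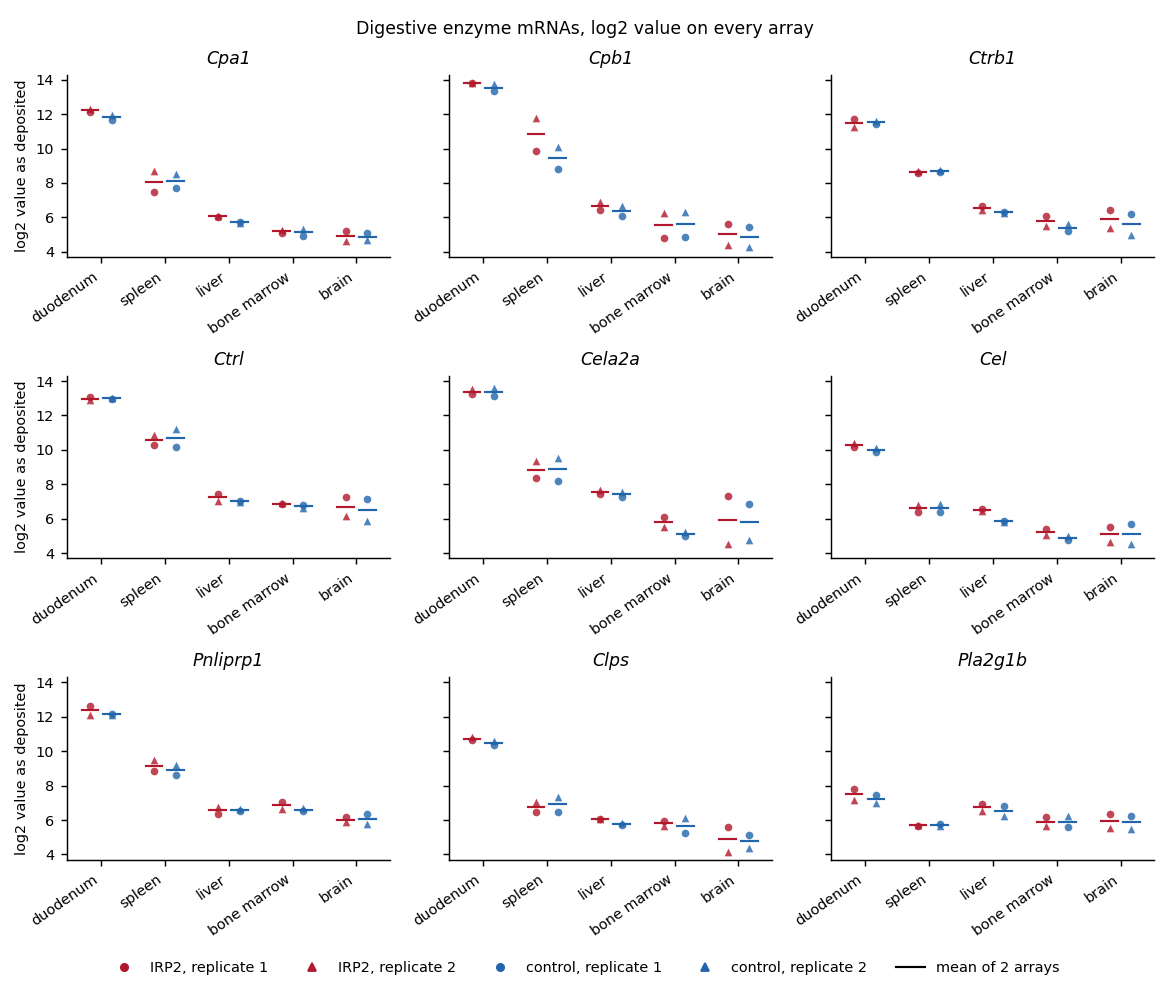
Log2 value as deposited of the brightest probe set of each of the 9 digestive enzyme genes (vertical axis) on each array by tissue (horizontal axis), with IRP2 reactions left of control reactions, circles for replicate 1, triangles for replicate 2 and a line at the mean of 2 arrays. Duodenum arrays stand above spleen arrays in every panel, and spleen arrays above liver, bone marrow and brain arrays in every panel except those of Pla2g1b and Cel, where liver IRP2 arrays reach above spleen arrays.

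Among the proteases, Cpa1 encodes carboxypeptidase A1, which removes aromatic and aliphatic residues from the carboxyl end of peptides. Its log2 values were 12.15 and 12.28 in duodenum IRP2 reactions, against 11.65 and 11.97 in duodenum controls. In spleen they were 7.45 and 8.68 with IRP2 and 7.68 and 8.51 in the controls, and all arrays of liver, bone marrow and brain lay between 4.65 and 6.08. After subtraction of the array medians, the duodenum controls exceeded the spleen controls by 3.43 and those of the other tissues by 6.45, and the tissue groups did not overlap.

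Cpb1 encodes carboxypeptidase B1, which removes basic residues. Cpb1 had 13.82 and 13.81 in duodenum IRP2 reactions, against 13.34 and 13.75 in duodenum controls. In spleen it had 9.87 and 11.77 with IRP2, against 8.82 and 10.10 in the controls. Its spleen arrays thus spread more widely than those of Cpa1, and both replicate 2 arrays were the higher ones. Bone marrow replicate 2 was also above replicate 1, at 6.27 against 4.79 with IRP2 and 6.32 against 4.85 in the controls, whereas in brain replicate 2 was lower, at 4.40 against 5.63 with IRP2 and 4.27 against 5.44 in the controls.

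Ctrb1 and Ctrl encode chymotrypsin-type proteases, which cut after large hydrophobic residues. Ctrb1 had 11.71 and 11.23 in duodenum IRP2 reactions, against 11.43 and 11.62 in duodenum controls, and 8.59 and 8.68 in spleen with IRP2, against 8.61 and 8.77 in spleen controls. Ctrl had 13.05 and 12.89 in duodenum with IRP2, against 12.98 and 13.02 in the controls, and 10.26 and 10.85 in spleen with IRP2, against 10.15 and 11.21 in the controls. Both genes separated duodenum from spleen on every array, by 2.54 for Ctrb1 and 2.03 for Ctrl between the controls. The other 12 arrays lay between 4.99 and 6.64 for Ctrb1 and between 5.86 and 7.43 for Ctrl, below all spleen arrays.

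Cela2a encodes a pancreatic elastase. It had 13.24 and 13.53 in duodenum IRP2 reactions, against 13.15 and 13.62 in duodenum controls, and 8.35 and 9.33 in spleen with IRP2, against 8.20 and 9.52 in spleen controls. The gap of 4.23 between duodenum and spleen controls was the highest of the 9 genes on the scale used here. In brain the replicates were far apart, with 7.32 and 4.55 in the IRP2 reactions and 6.84 and 4.74 in the controls, so the position of brain among the low tissues is uncertain for this gene.

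Among the lipid-digesting proteins, Cel encodes the bile salt-activated lipase. It had 10.14 and 10.39 in duodenum IRP2 reactions, against 9.87 and 10.13 in duodenum controls, and 6.41 and 6.81 in spleen with IRP2, against 6.41 and 6.86 in spleen controls. Its liver arrays had 6.59 and 6.44 with IRP2 and 5.85 and 5.83 in the controls. As deposited, both liver IRP2 arrays thus lay above both spleen replicate 1 arrays, while after median subtraction all 4 spleen arrays were above all 4 liver arrays. Pnliprp1 encodes a lipase-related protein with little lipase activity of its own. It had 12.65 and 12.13 in duodenum with IRP2, against 12.17 and 12.13 in the controls, and 8.85 and 9.47 in spleen with IRP2, against 8.61 and 9.21 in the controls, with the other 12 arrays between 5.78 and 7.04.

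Clps encodes colipase and was measured by 2 probe sets that differ in how sharply they separate the tissues. On the one with the higher mean over all arrays, duodenum had 10.64 and 10.83 with IRP2 and 10.38 and 10.62 in the controls, and spleen had 6.47 and 7.07 with IRP2 and 6.49 and 7.36 in the controls. On the other, duodenum had 12.61 and 12.58 with IRP2, against 12.81 and 12.76 in the controls, and spleen had 10.26 and 10.30 with IRP2, against 10.20 and 10.54 in the controls. Bone marrow and brain lay between 2.34 and 2.90 on that probe set, and liver at 3.06 and 4.34 with IRP2 and 2.91 and 4.61 in the controls. The spleen controls exceeded the other tissues by 1.69 on the first and by 7.57 on the second, so the size of the difference in spleen depends on the probe set while its direction does not.

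Pla2g1b encodes the secreted pancreatic phospholipase A2. On its brightest probe set, duodenum had 7.82 and 7.16 with IRP2 and 7.48 and 7.0 in the controls, while spleen had 5.66 and 5.74 with IRP2 and 5.75 and 5.66 in the controls. On its second probe set, of a design class that may also match other transcripts, duodenum had 8.55 and 7.99 with IRP2 and 8.19 and 7.65 in the controls, and spleen had 4.09 and 4.26 with IRP2 and 4.44 and 4.66 in the controls. This second probe set had the order of the other genes, duodenum over spleen over the rest, whereas the first put the spleen controls -0.22 from the other tissues. The remaining 2 probe sets were dim in every tissue, so the 4 probe sets of Pla2g1b disagree and its level in spleen is uncertain. The second probe set of Pla2g1b reached the array median on 4 arrays and that of Clps on 8, and each passed the filter through the tissues where they were high.

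Over the 9 genes on their brightest probe sets, duodenum controls exceeded spleen controls by a median of 3.07 (range 1.24 to 4.23). They exceeded the other tissues by a median of 5.64 (range 1.03 to 7.82), and spleen controls exceeded these by a median of 2.93 (range -0.22 to 4.11). Low levels are compressed in such summaries, so differences against tissues near background may understate the ratio. Genes also differed in the order below spleen: liver came next after spleen for 6 of the 9 genes on their brightest probe sets, and for 2 of those its controls overlapped those of the next tissue. Across the 20 arrays, 8 of the 9 genes correlated with the mean of the other members at 0.971 to 0.995, and Pla2g1b at 0.69. These arrays share tissues and pools, so the correlations describe the tissue pattern.

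Other genes listed for pancreatic acinar cells had the same tissue order less uniformly. Of a list of 31 names of further acinar enzymes and secreted proteins, 18 had a probe set of their own. Both duodenum controls lay above the 6 controls of liver, bone marrow and brain for 15 of the 18, both spleen controls for 9, and the full order held for 8. Sycn, a zymogen granule protein, had 12.13 and 11.95 in duodenum with IRP2, against 12.35 and 11.89 in the controls, and 8.85 and 9.60 in spleen with IRP2, against 9.30 and 9.90 in the controls, with liver, bone marrow and brain between 4.27 and 5.05. Cela1, another elastase gene, stood nearer in the tissues, with a duodenum control excess over spleen of 0.63, and Prss2, a trypsinogen gene, had spleen controls at -0.20 from the mean of the other tissues. Cpa3, the mast cell carboxypeptidase, is counted among the 18 although it is not an acinar gene. Chosen after its value was seen, it had no excess in duodenum (-0.43) or spleen (0.02). Counts of these lists carry no test, and their genes share RNA and arrays with the members.

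As lists, islet markers, duct markers, and the transcription factors and receptors of acinar cells themselves did not show the excess in spleen that the enzyme genes had. Of the islet list, 10 of 12 genes had a probe set, and both spleen controls lay above the other 6 controls for 0 of 10, with a median difference of -0.43. Of the duct list, 6 of 8 genes had a probe set and the count in spleen was 0 of 6 (median -0.67), and of the acinar transcription factors and receptors it was 0 of 7 (median 0.02). Over all tested probe sets the share was 23.2%, so with lists this short the counts say little. The spleen difference was above 0 for 2 of 10 islet genes (highest 0.72, Iapp) and 1 of 6 duct genes (0.62, Krt7). Among the acinar factors and receptors it was above 0 for 4 of 7 (highest 0.27, Bhlha15). The summed level of the islet list above array medians was -8.4 to -8.0 on the 4 spleen arrays and 7.7 to 9.3 on the 4 duodenum arrays. Pdx1, a transcription factor of both islet and duodenal cells, had 9.77 and 10.05 in duodenum with IRP2, against 9.76 and 9.92 in the controls, and 3.92 to 4.20 on the spleen arrays. Duct genes Cftr and Krt19, which intestinal epithelium also expresses, were at 10.29 to 11.14 and 11.13 to 12.01 in duodenum and at 2.61 to 2.79 and 3.78 to 4.53 in spleen.

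**Figure D2:**
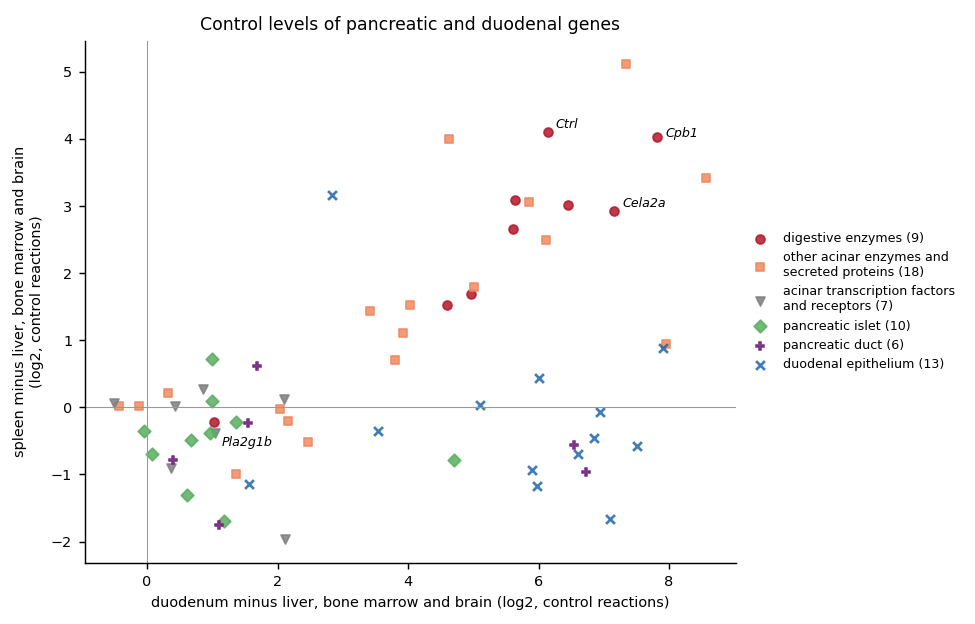
Difference of control levels between duodenum and the mean of liver, bone marrow and brain (horizontal axis, log2 after subtraction of array medians) and the same for spleen (vertical axis), 1 point per gene on its brightest probe set, with the number of genes per list in the legend. Digestive enzymes and several other acinar genes lie high on both axes, with Pla2g1b near the origin, while duodenal epithelium genes lie far right and mostly near or below 0 on the spleen axis.

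The duodenal epithelium list gives the contrast for spleen. Its genes exceeded the other tissues in duodenum by a median of 6.0, and in spleen by -0.46. The same medians were 5.64 in duodenum and 2.93 in spleen for the digestive enzyme genes. In the duodenal epithelium list, both spleen controls lay above the other 6 for 1 of 13 genes, beside 23.2% of all tested probe sets. That gene was Lyz1, a lysozyme gene, on a probe set of a design class that may also match other transcripts. Whether pancreatic tissue was part of the pooled duodenum or spleen samples was not tested.

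Within spleen the enzyme genes differed between replicates in both reactions alike. Replicate 2 exceeded replicate 1 by a median of 0.59 in the IRP2 reactions (range 0.06 to 1.88, 9 of 9 genes higher) and 0.84 in the controls (range -0.09 to 1.32, 8 of 9 genes higher). All tested probe sets had a median difference of -0.07 with IRP2 and 0.01 in the controls, with an SD of 0.24 in each. In duodenum the same difference had a median of 0.01 with IRP2 (5 of 9 genes higher) and 0.28 in the controls (8 of 9). Over all tested probe sets its median was 0.1 in each reaction of duodenum, with an SD of 0.37 with IRP2 and 0.4 in the controls. In liver the members had 0.04 with IRP2 (5 of 9) and -0.01 in the controls (4 of 9). In bone marrow the members' median difference was -0.30 with IRP2 (3 of 9 genes higher) and 0.35 in the controls (8 of 9), beside -0.03 and -0.23 over all tested probe sets. In brain all 9 genes were lower in replicate 2, by medians of -0.79 and -0.90, where the array medians lie in separate ranges and the SD over all tested probe sets was 0.76 and 0.73.

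**Figure D3:**
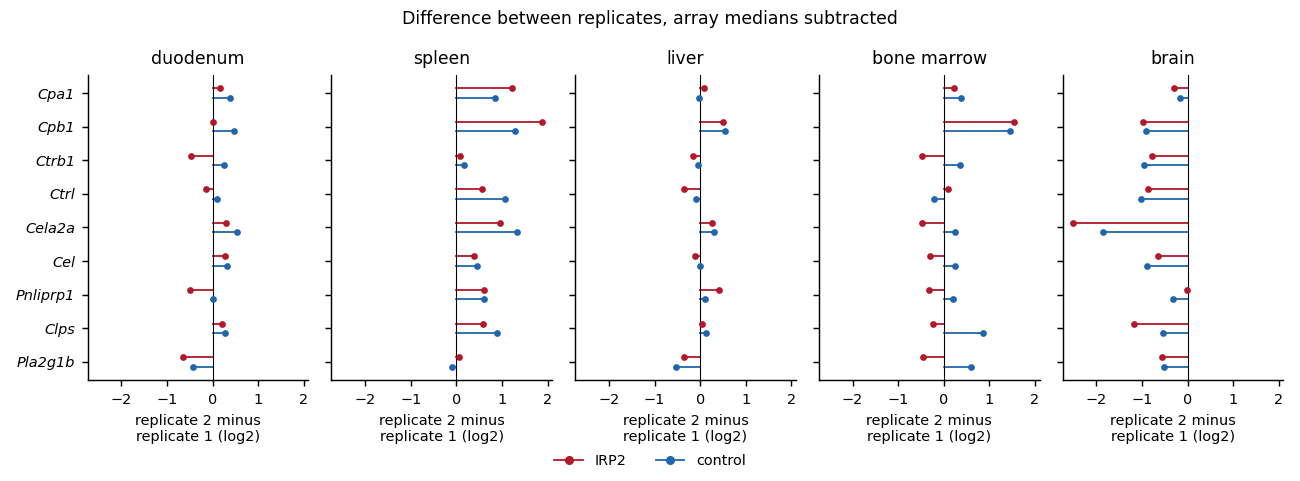
Replicate 2 minus replicate 1 (horizontal axis, log2 after subtraction of array medians) for each of the 9 digestive enzyme genes by tissue, with IRP2 reactions above control reactions for each gene. Spleen differences lie at or above 0 for nearly all genes and brain differences below 0. Liver differences and duodenum IRP2 differences lie on both sides of 0, while duodenum control differences are above 0 for 8 of the 9 genes.

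Markers of 2 other tissues moved with the spleen replicates. The summed level of the liver list was 14.7 with IRP2 and 14.4 in the control of spleen replicate 2, against -1.5 and -1.4 in replicate 1. The transport protein gene Ttr showed this most: 3.80 and 9.64 in spleen IRP2 reactions of replicates 1 and 2, and 3.72 and 9.49 in the controls. The duodenal epithelium list went the other way, with -0.7 with IRP2 and 0.3 in the control of spleen replicate 2, against 6.3 and 6.7 in replicate 1. Fabp2, the intestinal fatty acid-binding protein gene, had 5.87 and 3.98 with IRP2 and 5.41 and 3.91 in the controls. Fabp1 of the same list rose instead, from 6.85 to 8.21 with IRP2 and from 6.97 to 8.34 in the controls. Of the 13 genes of this list, 3 were higher in replicate 2 with IRP2 and 2 in the controls. Spleen B and T cell genes were alike on the 4 spleen arrays, with sums of 43.5 to 45.5, and the part of other tissues in the enzyme levels was not tested.

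Single acinar genes, chosen after their values were seen, did not always follow the members between replicates. Reg2, which encodes a secreted lectin-like protein of acinar and islet cells, was lower in replicate 2 of spleen, at 7.85 and 5.41 with IRP2 and 7.82 and 5.85 in the controls. In duodenum it was also lower there, with 10.98 and 7.87 with IRP2 and 10.81 and 7.40 in the controls. In liver, 3 genes of the acinar list that intestinal epithelium also makes stood out in replicate 2. Reg1 had 4.76 and 8.47 with IRP2 and 4.93 and 8.19 in the controls, Spink1 4.27 and 7.14 with IRP2 and 5.04 and 7.36 in the controls, and Zg16, a goblet cell protein gene, 7.52 and 10.49 with IRP2 and 8.17 and 10.63 in the controls. The duodenal epithelium list moved the same way in liver, with sums of 24.5 and 39.0 with IRP2 and 23.5 and 39.0 in the controls, while the 9 member genes had a median replicate difference of -0.01 there. The second probe set of Clps was a member probe set with the same direction in liver, as given above.

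No digestive enzyme mRNA was called between IRP2 and control reactions in a limma fit of the 10 group means. None of the 11 member probe sets tested passed an adjusted p of 0.05 (Benjamini-Hochberg over all 30153 tested probe sets) in any tissue or on the mean over tissues, and 0 of 11 had an unadjusted p under 0.05. Of all 30153, 380 had an unadjusted p under 0.05 in duodenum, 288 in spleen, 336 in liver and 1962 in bone marrow. The count was 213 in brain and 866 on the mean, so 0 of 11 is near the general share. In the same fit 0.073% of all tested probe sets were called in duodenum, 0.063% in spleen, 0.0332% in liver, 0.00995% in bone marrow, 0.063% in brain and 0.371% on the mean. Tfrc, the transferrin receptor gene with several iron-responsive elements, shows the size of a known target: on its brightest probe set it had 13.54 and 13.72 in duodenum with IRP2, against 11.35 and 12.01 in the controls, a log2 difference of 1.95 ± 0.28 (SE). Tfrc differed by 1.46 in spleen, 2.78 in liver, 0.92 in bone marrow and 2.36 in brain. This fit did not call Tfrc in spleen (adjusted p = 0.0934 in limma) or bone marrow (adjusted p = 0.695 in limma). A known target thus also went uncalled in those tissues in this fit. A limma fit with tissue and replicate number as a block, described below, called Tfrc in spleen (adjusted p = 0.00451). It did not call Tfrc in bone marrow (adjusted p = 0.0531 in limma with the block). The median over the 9 member genes was 0.24 in duodenum, -0.02 in spleen, 0.24 in liver, 0.16 in bone marrow and 0.11 in brain, beside 0.04, -0.02, -0.04, -0.04 and -0.02 over all tested probe sets. On the mean over tissues all 9 genes were above 0 on their brightest probe sets, with a median of 0.16 (range 0.09 to 0.40). Over all tested probe sets the median was -0.02 and 43.0% were above 0. The second probe sets of Clps and Pla2g1b had -0.02 and 0.0 on the mean. None of the members passed the test without the block. With 1 array left out the median over the 9 genes was 0.05 to 0.26. Cela2a then went down to -0.08 and Clps to -0.03 without the IRP2 array of brain replicate 1, and Ctrl to -0.04 without the control of brain replicate 2.

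The arrays with the same replicate number varied together, and a limma fit with tissue and replicate number as a block called 1 member. Cpb1 was higher with IRP2 in spleen, by a log2 difference of 1.36 ± 0.17 (SE, a fold of 2.56), with an adjusted p of 0.00275 in the limma fit with the block. Without the block the same difference had an SE of 0.67 and an adjusted p of 1 in limma. As listed above, the spleen IRP2 reactions had 9.87 and 11.77 and the controls 8.82 and 10.10. Each IRP2 array was above the control of its own pair, by 1.05 and 1.66, but the IRP2 array of replicate 1 lay below the control of replicate 2, so the groups overlap. In fits without the block that left out 1 spleen array, the value of Cpb1, IRP2 minus control in spleen, was 2.30 when the IRP2 array of replicate 1 was dropped and 0.41 when that of replicate 2 was. Dropping a control array gave 0.71 for replicate 1 and 2.00 for replicate 2. Cpb1's differences were exceeded by 115 of the 30153 tested probe sets in pair 1 and by 24 in pair 2.

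With the block, Cpb1 was also called on the mean over tissues, by 0.40 ± 0.08 (adjusted p = 0.0179 in limma). Its difference was 0.27 in duodenum, 0.29 in liver, -0.05 in bone marrow and 0.16 in brain, none of them called, so spleen had the highest of the 5 differences behind the mean. The limma F test across tissues did not call Cpb1 (adjusted p = 1 without the block and 0.406 with it) or any other member, and it called 0.00332% of all tested probe sets without the block and 0.0398% with it. The fit with the block called 0.295% of all tested probe sets in duodenum, 0.305% in spleen, 0.219% in liver, 0.726% in bone marrow, 0.143% in brain and 1.21% on the mean, so 1 of 11 member probe sets is to be read against those shares. At an unadjusted p under 0.05 it had 1 member probe set in duodenum, 1 in spleen, 2 in liver, 1 in bone marrow, 0 in brain and 3 on the mean. The same fit had 6.36% of all tested probe sets under that p in duodenum, 4.0% in spleen, 5.39% in liver, 21.8% in bone marrow, 2.88% in brain and 11.7% on the mean. When both spleen replicate 2 arrays were left out, Cpb1's spleen difference was 1.05 with an adjusted p of 0.319 in limma with the block, and without both replicate 1 arrays it was 1.66 with an adjusted p of 0.0368. Each of these fits leaves 1 array per spleen group, so its p rests on the spread in the other tissues. On the mean the call was lost in 6 of 10 such fits, with adjusted p-values of 0.00152 to 0.11 over the 10.

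The other members in spleen stayed near 0. Their differences ran from -0.16 for Clps to 0.25 for Pnliprp1 on the brightest probe sets. Cpa1, the other carboxypeptidase gene among the members, had -0.22 and 0.17 in the spleen pairs. Cela2a had 0.15 and -0.19, and Ctrl 0.11 and -0.36. On its second probe set, Pla2g1b was below both controls with IRP2 in spleen, by -0.38 ± 0.25 (adjusted p = 1 in limma with and without the block). Cpb1's difference from the other members was not tested.

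**Figure D4:**
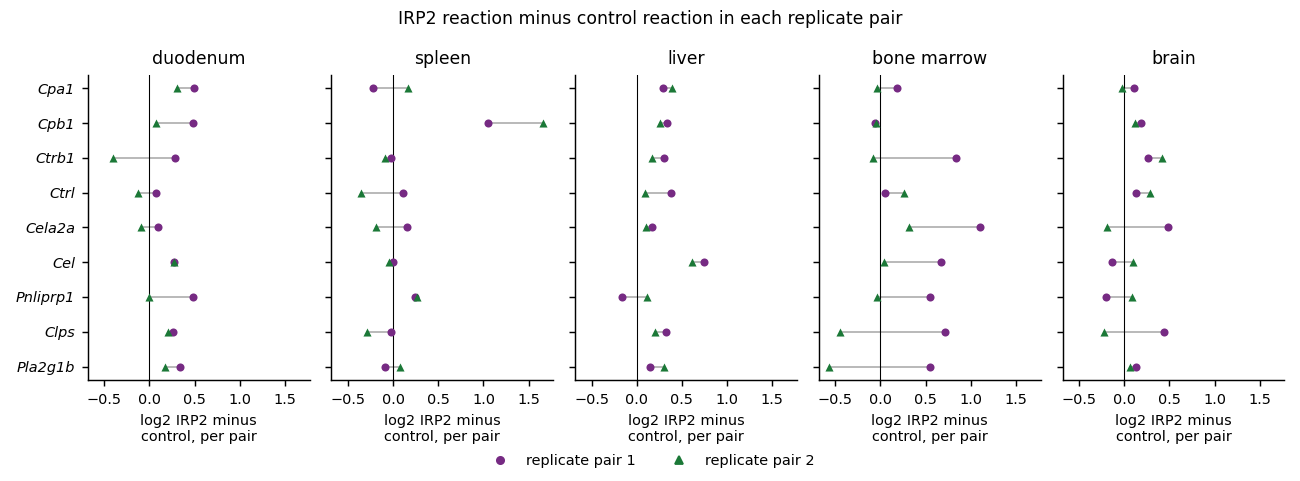
Log2 IRP2 minus control (horizontal axis) within each replicate pair for the 9 digestive enzyme genes by tissue, with circles for pair 1, triangles for pair 2 and a grey line joining them. Cpb1 in spleen lies at 1.05 and 1.66, to the right of every other point of its panel, and the bone marrow pairs are far apart for several genes.

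Outside spleen, both IRP2 arrays lay above both controls for 4 of 11 member probe sets in duodenum (14.4% of all tested probe sets), 4 in liver (13.9%), 3 in bone marrow (14.5%) and 1 in brain (4.21%), without any passing the test. In spleen the count was 0 (15.6%). Cel in liver had 6.59 and 6.44 with IRP2, against 5.85 and 5.83 in the controls. The groups did not overlap, and the difference of 0.67 ± 0.35 had an adjusted p of 1 in limma without the block and 0.245 with it. Cpa1 in duodenum differed by 0.40 ± 0.35 and was above both controls (adjusted p = 1 in limma without the block and 0.663 with it).

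In bone marrow the pairs went apart: 8 of 9 genes were above 0 in pair 1, with a median of 0.55, and 3 of 9 in pair 2, with a median of -0.04. Pair 1 holds the control array that resembled spleen, and its differences over all tested probe sets had an SD of 0.568 against 0.312 in pair 2. Cela2a had 6.07 and 5.54 in bone marrow with IRP2, against 4.97 and 5.23 in the controls, a difference of 0.71 ± 0.73 (adjusted p = 0.962 in limma without the block and 0.101 with it). Without that control array the difference was 0.58. The members' bone marrow median was 0.16 with the array and 0.14 without it.

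The other lists of pancreatic genes gave no call in any tissue or on the mean, with or without the block in limma. At an unadjusted p under 0.05 each of these lists had 0 genes in every comparison without the block, and between 0 and 3 with it, the 3 being further acinar genes in spleen. With the block, 4.0% of all tested probe sets were under that p in spleen. Over the comparisons this share ran from 2.88% in brain to 21.8% in bone marrow. Of the further acinar list 17 of 31 names were tested, of the islet list 8 of 12, of the duct list 6 of 8 and of the acinar factors and receptors 6 of 8. Both acinar lists hold an older name of a gene also listed, Spink3 for Spink1 and Mist1 for Bhlha15. The acinar list had median differences of 0.05 in duodenum, -0.13 in spleen, -0.06 in liver, 0.10 in bone marrow and -0.02 in brain. Of 6 tested genes with an iron-responsive element, 4 were called higher with IRP2 on the mean without the block and 6 with it. Prss2, the trypsinogen gene, had 10.28 and 10.63 in spleen with IRP2, against 9.43 and 9.95 in the controls. Both IRP2 arrays lay above both controls, by 0.77 ± 0.76 (adjusted p = 1 in limma without the block and 0.227 with it).

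The genes whose pattern over the 20 arrays was most like the members' mean included several acinar ones. Among 14789 candidate genes, the 10 with the highest Pearson correlation were Pnliprp2 (0.984), Rnase1 (0.984), 2210010C04Rik (0.981), Gp2 (0.979), Emp1 (0.979), Cela3b (0.97), Hepacam2 (0.968), Sycn (0.964), Gm11545 (0.961) and Pkp3 (0.959). Pnliprp2 encodes a pancreatic lipase-related protein, Rnase1 the pancreatic ribonuclease and Gp2 the main membrane glycoprotein of zymogen granules. Of the 10, 5 (Pnliprp2, Rnase1, Gp2, Cela3b and Sycn) were on the list of further acinar genes. Emp1 and Pkp3 are epithelial genes, a membrane protein and a desmosomal plakophilin. Emp1 ranged from 10.31 to 11.24 in duodenum and 7.61 to 8.04 in spleen.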

How the data were processed

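Log2 values of 45101 probe sets on 20 Affymetrix mouse genome arrays were used as deposited by the authors. The series' design text and the submitters' processing notes name RMA in Bioconductor, and MAS5 in Affymetrix GCOS with quantile normalization, without saying which made these log2 values. That the values are on a log2 scale was read from their range. The members, the gene lists and the tests were chosen with earlier results of these data known.

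Gene names came from the platform annotation, which gave 34958 probe sets 1 symbol, 932 several and 9211 none. Affymetrix control probe sets (64) were removed, and 30153 probe sets (66.9%) at or above their own array's median on at least 2 arrays were tested. This filter also keeps probe sets that are bright in 1 tissue.

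A limma model (limma 3.58.1, R 4.3.3) with 10 group means gave IRP2 minus control in each tissue, the mean over tissues and an F test that the tissues are equal, called at a Benjamini-Hochberg adjusted p of 0.05 over all tested probe sets. Arrays of 1 replicate number deviated together in each tissue, with correlations of their deviations from the group means of 0.676 in duodenum, 0.385 in spleen, 0.565 in liver, 0.251 in bone marrow and 0.923 in brain, all above 0.1. The numbers come from the sample titles and were taken to pair IRP2 and control reactions. The fit with tissue and replicate as a block is therefore given beside results whose call it changes. The fit was tested on simulated data with 200 changed probe sets.

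Levels between tissues are values minus the array median, described without a test. Each gene is described on its probe set with the highest mean. Up to 4 genes of each other list were named, those with the highest mean in the duodenum and spleen controls, and the 10 genes with the highest Pearson correlation with the members' mean profile. Genes outside this rule are stated as chosen after their values were seen. Alternatives were the block, other filters, quantile normalization, median subtraction, a trended robust prior, each tissue alone and each array left out. Sequences came from RefSeq tables and were searched in Python 3.11.15.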

Additional observations from a re-analysis of the deposited data

Results flagged for a closer look

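The second probe set of Clps, which encodes colipase, had opposite directions with IRP2 in 2 tissues. In brain it had 2.90 and 2.72 with IRP2, against 2.68 and 2.52 in the controls, a log2 difference of 0.21, and the groups did not overlap. In duodenum it had 12.61 and 12.58 with IRP2, against 12.81 and 12.76 in the controls, a difference of -0.19, again without overlap. The brain difference minus the duodenum difference was 0.40. This difference between 2 tissues was not tested by itself, and the brain values lay below the array medians. On the brightest probe set of Clps, the duodenum difference was 0.23, with both IRP2 arrays above both controls. The 2 probe sets of Clps thus went opposite ways on the same duodenum arrays.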

How the results depend on the processing

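No member was called in any tissue or on the mean under any alternative except the replicate block, and no result changed direction among those called. With the replicate block, which the pairing of the reactions calls for, 1 member probe set was called in spleen and 1 on the mean, in each case Cpb1, and the block changed no other member's call. The counts over all probe sets moved from 22 to 89 in duodenum, 19 to 92 in spleen, 10 to 66 in liver, 3 to 219 in bone marrow, 19 to 43 in brain, 112 to 366 on the mean and 1 to 12 for the F test between tissues. In fits with the block that each left out 1 pair, chosen after seeing the data, members called ranged from 0 to 1 in spleen and from 0 to 7 on the mean. The 7 came without bone marrow replicate 2, in a fit that leaves 1 array per bone marrow group. The share of all tested probe sets called in that fit is not given here. The 7 therefore cannot be read as particular to the members.

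Fitting only the 4 arrays of a tissue gave 0 calls in duodenum, bone marrow and brain, and 205 for IRP2 minus control in spleen. In bone marrow the count was 0 without the filter, 0 with array medians subtracted and 15 after quantile normalization, and the F test count was 0 under both scalings. Leaving out 1 array gave 1 to 11 calls in duodenum, 5 to 9 in spleen, 2 to 4 in liver, 0 to 1768 in bone marrow (1768 without control replicate 2), 6 to 15 in brain, 90 to 141 on the mean and 0 to 2 for the F test, each with a lone array assumed to vary like the other groups. The members' median difference ranged over these fits from 0.12 to 0.24 in duodenum, -0.26 to 0.39 in spleen, 0.25 to 0.31 in liver, 0.14 to 0.49 in bone marrow, -0.35 to 0.77 in brain and 0.05 to 0.26 on the mean, so in spleen and brain its sign depended on the array left out.

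The median control level over the 9 genes was 6.13 in duodenum, 3.30 in spleen, 0.70 in liver, 0.10 in bone marrow and 0.05 in brain above the array medians. As deposited it was 11.81, 8.69, 6.37, 5.58 and 5.59 in the same order, and after quantile normalization 2.87 in spleen and 0.75 in liver. Without 1 control array it was 5.94 to 6.31 in duodenum, 2.81 to 3.38 in spleen, 0.61 to 0.67 in liver, -0.25 to 0.62 in bone marrow and -0.68 to 0.54 in brain. The cause of these shifts was not tested. With 2 arrays a group, signals near background limit what can be said of liver, bone marrow and brain.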
